A study of Rattus norvegicus with 4 samples.

Results

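Exonic circular RNAs (circRNAs) that span 50 kb or more of the genome were examined in rat sciatic nerve after a crush injury. Members were the circRNAs that the deposited files class as exonic and whose genomic length, end minus start, is at least 50000 bases. They numbered 237 of 4942 circRNAs listed and 6.35% of the 3731 exonic ones, and they came from 172 of 2327 host genes. The span covers introns, so it is the distance between the joined splice sites and not the length of the circular molecule.

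The nerves came from Sprague-Dawley rats at postnatal week 6, and all were taken 24 h after surgery. In the crush group a 3 mm stretch of sciatic nerve was pinched 2 times for 15 s, with 3 s between, and that stretch was collected with 1 mm of nerve at either end. In the sham group the nerve was exposed and left uncrushed. There were 2 total RNA libraries per group, with 8250 to 9027 back-splice junction reads each, and no label tells whether replicates were separate animals or pools. P-values therefore measure the spread between these libraries, which may be technical.

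A circRNA forms when the spliceosome joins a downstream 5′ splice site to an upstream 3′ splice site, usually when the introns on either side are brought together by paired repeats or by bound proteins. Long host genes are rich in large introns, so a back-splice can skip over a great distance and still enclose few exons. CircRNAs lack free ends and resist exonucleases, and they are abundant in nervous tissue. In a crushed nerve the axons beyond the injury start to degenerate, Schwann cells leave their myelinating state, and leukocytes enter. In such bulk tissue, fewer cells of a type and less RNA per cell cannot be told apart.

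Long exonic circRNAs held a smaller part of the junction reads after crush than after sham. They had 215 reads in crush replicate 1, 238 in crush replicate 2, 380 in sham replicate 1 and 334 in sham replicate 2. As a share of exonic junction reads this was 3.47% (95% Clopper-Pearson interval 3.03% to 3.95%) and 3.51% (3.08% to 3.97%) after crush. In the sham libraries it was 5.63% (5.10% to 6.21%) and 5.03% (4.51% to 5.58%). Both crush libraries lay below both sham libraries, and no crush interval reached a sham interval. These intervals cover counting error only. The group means were 3.49% ± 0.028 and 5.33% ± 0.43 (SD, n = 2), a difference of -1.84 percentage points, and the exact two-sided permutation test gave p = 0.333, the smallest that 2 libraries against 2 can give.

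The number of long circRNAs called showed the same order. Of the 237, 60 and 67 were called after crush, against 99 and 90 after sham, again without overlap (exact permutation p = 0.333). Among exonic circRNAs called in a library, the long ones made up 4.41% and 4.38% after crush and 7.40% and 6.58% after sham. Exonic circRNAs of all spans were not fewer after crush, with 1360 and 1531 called against 1337 and 1368. With at least 5 reads required in a library, 7 and 10 long circRNAs remained after crush and 21 and 19 after sham. In the deposited SRPBM signal, which is the junction read count times a constant of each library, the members summed to 14.9 ± 0.96 after crush and 27.0 ± 1.00 after sham (SD, n = 2). The exonic circRNAs under 50 kb summed to 434 and 391 SRPBM after crush and 464 and 496 after sham.

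**Figure D1:**
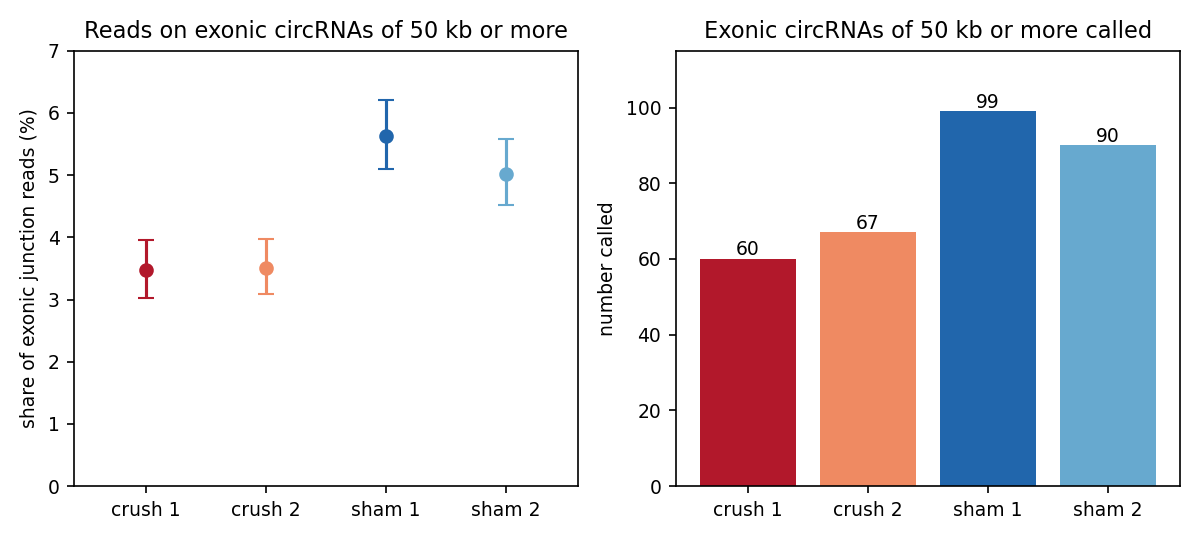
Left, share of exonic junction reads (%) that fell on exonic circRNAs of 50 kb or more in each library, with 95% Clopper-Pearson intervals; right, the number of these circRNAs called in each library. The crush libraries sit at 3.47% and 3.51% and the sham libraries at 5.63% and 5.03%, and 60 and 67 circRNAs were called against 99 and 90.

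Across span classes of exonic circRNAs, the ratio of the crush share to the sham share was lowest for the longest spans. Exonic circRNAs of 100 kb or more, 38 in number, took 0.307% and 0.221% of exonic reads in the crush libraries against 0.860% and 0.542% in sham, a ratio of 0.376 between the group means. Those of 50 to 100 kb, 199 in number, took 3.16% and 3.29% against 4.77% and 4.48%, a ratio of 0.697. The groups did not overlap in either class, nor at 20 to 50 kb (14.9% and 16.7% against 19.0% and 19.6%). At 2 to 5 kb they did not overlap either, with crush above sham (22.0% and 18.8% against 15.2% and 16.1%). The other classes overlapped. The ratio was 0.818 at 20 to 50 kb, 0.959 at 10 to 20 kb, 1.04 at 5 to 10 kb, 1.30 at 2 to 5 kb and 1.04 under 2 kb. These ratios describe 4 libraries and the trend itself was not tested.

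**Figure D2:**
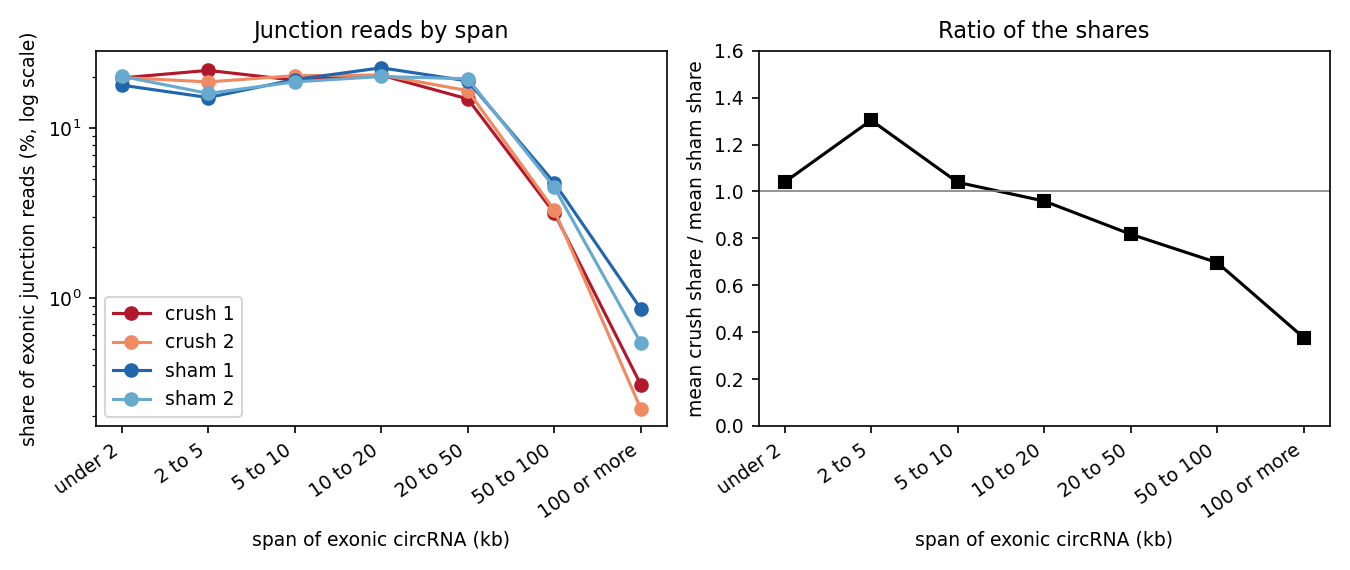
Left, share of exonic junction reads (%, log scale) in each span class (kb) for the 4 libraries; right, the mean crush share divided by the mean sham share in each class, with a line at equality. The ratio is 1.30 at 2 to 5 kb and 0.376 at 100 kb or more.

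Long circRNAs were also set against the other circRNAs of their hosts. Of the 172 hosts, 128 also had 1 or more other circRNAs, 429 in all, with 885 and 934 reads in the crush libraries against 1124 and 1068 in sham. Long circRNAs took 19.5% (17.2% to 22.0%) and 20.3% (18.0% to 22.7%) of their hosts' reads in the crush libraries. In the sham libraries this was 25.3% (23.1% to 27.5%) and 23.8% (21.6% to 26.1%). These shares are over all 172 hosts. The 44 hosts without another circRNA enter with long reads only, so the shares are not purely a comparison within genes. A share over the 128 hosts alone was not computed. The crush libraries were again both lower, with a mean difference of -4.62 percentage points (exact permutation p = 0.333), although some of the intervals touched. As a part of all junction reads of a library, the other circRNAs of these hosts had a crush to sham ratio of 0.853, the long ones 0.652, and all exonic circRNAs under 50 kb 1.01.

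Marker counts of several cell type lists moved with the groups. Hosts of the endothelial and mural list, with 22 and 10 junction reads in the crush libraries against 24 and 24 in sham over 8 of 20 genes, had crush replicate 1 close to sham. Hosts of the skeletal muscle list had 76 and 84 junction reads in the crush libraries against 207 and 235 in sham, nearly all from Mlip, and the muscle genes Ttn, Acta1 and Ckm had no listed circRNA. Hosts of the leukocyte list had 97 and 112 reads against 21 and 18, over 17 of 25 listed genes. Among these, Fli1 (4 and 12 against 12 and 13) gave most of the sham reads. Fli1 and Elmo1 (0 and 0 against 4 and 2) did not rise with the list. Hosts of the Schwann cell list had 4 and 7 against 21 and 25 over 7 of 28 genes, and Sox10, a transcription factor gene of the lineage, had no listed circRNA. Most of these sham reads came from Sorcs1 (2 and 0 against 9 and 12) and Cadm2 (0 and 0 against 7 and 0), and Plekha5 (0 and 3 against 0 and 0) went the other way. Hosts of the fibroblast and perineurium list had 142 and 209 against 305 and 384 over 14 of 32 genes, also without overlap. In that list Nfix, a transcription factor gene, had 67 and 106 against 265 and 348, while the matrix genes Emilin2 (58 and 67 against 6 and 9) and Vcan (15 and 27 against 0 and 0) went the other way. Of the 237 long circRNAs, 4 had a host in the muscle list, 8 in the leukocyte list and 4 in the Schwann cell list. The fibroblast and perineurium list had 1 and the endothelial and mural list 0. The part that cell make-up plays in the lower share was not tested. Without muscle-list hosts the share was 3.43% and 3.49% against 5.73% and 4.96%. Without leukocyte-list hosts it was 3.42% and 3.43% against 5.59% and 4.96%. These lists hold only 4 and 8 of the 237 members, so leaving out their hosts could change the share little. Left out one at a time, the hosts moved the group difference between -2.30 percentage points (without Cers6) and -1.69 (without Stk39).

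Most long circRNAs were seen once. Of the 237, 189 (79.7%) were called in a single library, 26 in 2, 13 in 3 and 9 in all 4. Among exonic circRNAs under 50 kb, 70.1% were called in a single library and 7.01% in all 4. Within the crush group, 16 of the 111 long circRNAs called in either library were called in both (14.4%), and within sham 27 of 162 (16.7%). For exonic circRNAs under 50 kb these parts were 23.9% and 25.2%. The median count of a called long circRNA was 2 to 3 reads, against 3 for the shorter ones. A listed count was never 1, so a 0 can hide reads.

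The calls leaned to sham nerve. Sham alone had 126 of the 237 long circRNAs (53.2%), crush alone 75 (31.6%), and 36 were called in both groups. For all exonic circRNAs under 50 kb together the order was the other way, with 36.1% in sham alone and 42.5% in crush alone. Those of 20 to 50 kb also leaned to sham, with 43.2% in sham alone and 36.3% in crush alone. Both sham libraries and neither crush library had 8 of the long ones, and both crush libraries and neither sham library had 4. Among the 3494 exonic circRNAs under 50 kb these counts were 138 and 159. As a part of its set, the sham count was not larger for the long ones, and the crush count was smaller. The mean level, as a part of the junction reads of a library, was higher after sham for 149 of the 237 (62.9%). This held for 47.1% of exonic circRNAs under 50 kb and for 54.7% of those of 20 to 50 kb. By host, it was higher after sham for 111 of 172.

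The spans ran from 50404 to 199323 bases with a median of 65.9 kb, and 76 of the 237 lay under 60 kb. The longest circRNA of any class in the files spanned 199947 bases. The longest member came from Nalcn, a sodium leak channel gene, at chromosome 15, 109844073 to 110043396 in build Rnor_6.0, with 2 reads in sham replicate 1 alone. The next came from Yeats2, a gene for a histone reader (chromosome 11, 84379169 to 84575616), with 2 reads in crush replicate 1 alone. Those of Magi2 (188931 bases), a scaffold protein gene, Tenm2 (175647 bases), a teneurin adhesion gene, and Stag1 (171507 bases), a cohesin subunit gene, each had 2 or 3 reads in 1 sham library. None of these 5 was called in more than 1 library. Just inside the threshold were circRNAs of Vps13a (50404 bases; 5 reads in sham replicate 2) and Eri3 (50643 and 50649 bases). Just outside were those of Lama2 (49788 bases; 5 and 4 sham reads), Ash1l (49769 bases; 3 reads in sham replicate 1) and Ccdc171 (49424 bases; 3 reads in crush replicate 1).

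Long circRNAs often shared a splice site with another circRNA of their gene. Of the 237, 162 (68.4%) had a start or end in common with another listed circRNA of the strand and 49 (20.7%) had both ends in use by others. The corresponding parts were 62.9% and 14.0% for exonic circRNAs of 20 to 50 kb, and 42.1% and 6.70% for all exonic ones under 50 kb. A circRNA of the same strand lay wholly inside 156 of the 237, and none of the 237 enclosed a circRNA assigned to another host on its strand. The 87033-base circRNA of Evi5, a GTPase-activating protein gene of membrane traffic, enclosed 13 others. The 2 Eri3 circRNAs nearest the threshold differed slightly at the start and shared the end 136471341. They were the only members with a listed copy within 10 bases at both ends, so their reads may belong together.

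By chromosome the part of exonic circRNAs that were long ran from 2.15% on chromosome 12 (2 of 93) to 9.93% on chromosome 17 (14 of 141), and neither of the 2 on chromosome Y was long. Chromosome 1 held the most, 32. Strands were near even, with 127 on the plus and 110 on the minus strand.

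Of the 237, 13 had at least 5 reads in at least 2 libraries and entered the test. The other 224 were not tested. The test was edgeR's quasi-likelihood test fitted on all 428 circRNAs of any class with that many reads, with p-values adjusted over the 428. After crush, 1 member rose, against 7.48% of all 428 that rose, and 2 fell, against 4.44% that fell. So few members were tested that these counts cannot be set apart from the background. The tested members had a median log2 change of -0.66, against 0.03 over all 428 and 0.09 over the 316 tested exonic ones under 50 kb. In all 3 of 13 passed, against 11.9% of the 428, and the same 3 had an unadjusted p under 0.05, against 27.8%. Levels, as parts of the library's reads, did not overlap in 7 of 13 with crush below sham (32.0% of all 428) and in 2 with crush above (26.9% of all 428). The filter lets in a circRNA high in either group, so the 13 do not stand for all 237. The 224 untested had 127 and 159 reads in the crush libraries against 288 and 228 in sham.

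The long circRNA that rose came from Cers6 (ENSRNOG00000024595), the gene of a ceramide synthase, which joins a fatty acyl chain to a sphingoid base. It lies on the plus strand of chromosome 3, 55157605 to 55224851, spans 67246 bases, and had 30 and 22 reads in the crush libraries against 0 and 0 in sham. Both crush libraries were high and both sham libraries were listed at 0. In SRPBM it was 1.75 ± 0.61 against a listed 0, at least 7.68-fold higher when 3 reads are set as the floor in each sham library (edgeR adjusted p = 0.0454). With DESeq2 the adjusted p was 0.000349, and over all alternatives it ran from 1.22e-10 to 0.222. It was 0.135 when at least 2 reads in 2 libraries were asked for, a setting in which 0 of 1355 circRNAs passed. With either crush library left out, too few reads remained for the test. Of the other 2 long Cers6 circRNAs, the one of 115531 bases shared its start and had 4 reads in crush replicate 1. The one of 69794 bases began at 55224794, just before that end, and had 5 reads in crush replicate 2. All 3 were absent from the sham lists, as were the 3 shorter Cers6 circRNAs, which had 15 and 12 reads after crush.

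Both long circRNAs that fell were listed at 0 in both crush libraries. That of Arhgap10 (ENSRNOG00000013152), a GTPase-activating protein gene, lies on the plus strand of chromosome 19, 34249087 to 34312530, and had 6 and 5 reads after sham. The sham level was 0.415 ± 0.031 SRPBM, so it was at least 2.09-fold lower after crush (edgeR adjusted p = 0.0454). The 10 shorter Arhgap10 circRNAs were not at 0 after crush, with 7 and 20 reads against 21 and 45. That of Ubn2 (ENSRNOG00000005564), a ubinuclein gene linked to histone H3.3 deposition, lies on the plus strand of chromosome 4, 66172555 to 66232564. It had 5 and 7 reads after sham, or 0.457 ± 0.132 SRPBM, and was at least 2.31-fold lower (edgeR adjusted p = 0.0474). The 9 shorter Ubn2 circRNAs had 14 and 20 reads after crush against 33 and 26. The calls of Arhgap10 and Ubn2 each rest on 11 or 12 reads. Each is the only long circRNA of its host. In the test of host sums, described below, the same reads did not pass (edgeR adjusted p = 0.0864 for both). Neither passed with either crush library left out (adjusted p = 0.0726 and 0.0624 for both) or without the read filter (0.635 and 0.462), and with a left-out sham library neither had enough reads to be tested.

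**Figure D3:**
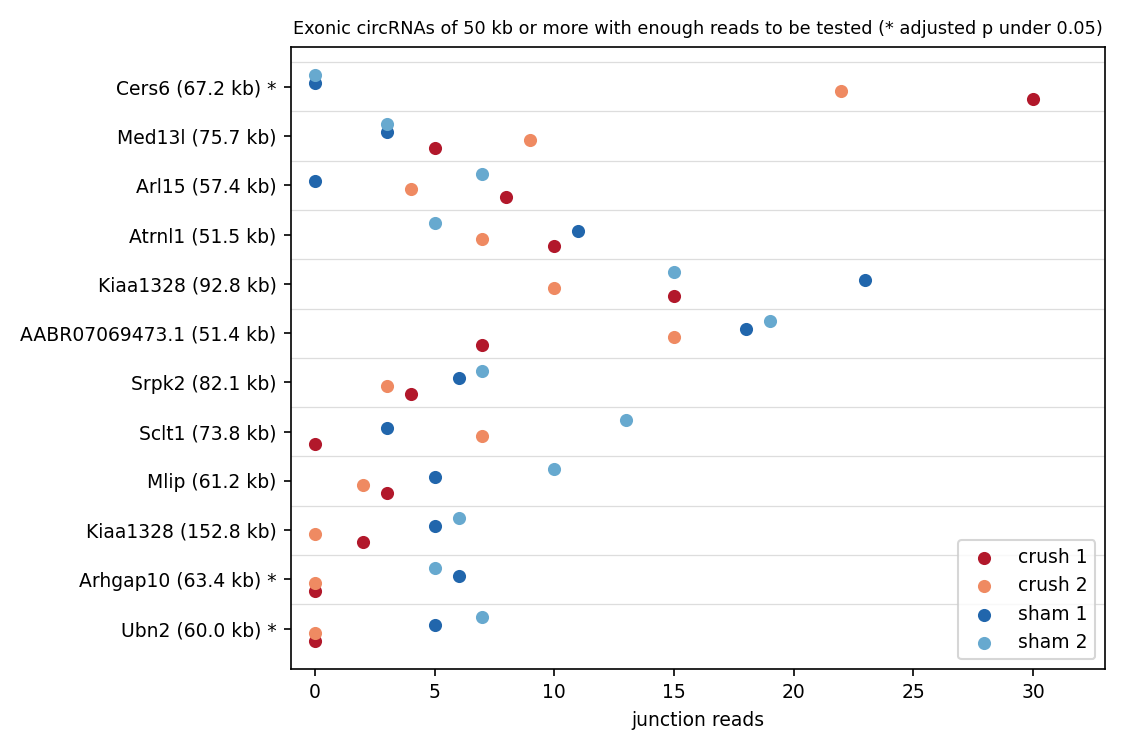
Junction reads in each of the 4 libraries for 12 of the 13 exonic circRNAs of 50 kb or more that had enough reads to be tested, ordered by fitted log2 change; an asterisk marks an adjusted p under 0.05. Cers6 has 30 and 22 reads after crush and none after sham, Arhgap10 and Ubn2 have reads after sham only, and 4 of the 12 overlap between groups.

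The most abundant long circRNA came from Kiaa1328 (ENSRNOG00000029466, RGD1562608 in the files), a gene of a little-known hinderin protein. It lies on chromosome 18, 17404077 to 17496916 (92839 bases, plus strand), and had 15 and 10 reads in the crush libraries against 23 and 15 in sham. Its groups overlapped, with a log2 change of -0.37 ± 0.47 (SE, edgeR adjusted p = 0.711). A second Kiaa1328 circRNA with the same start reached 17556889 (152812 bases), with 2 and 0 reads against 5 and 6 (adjusted p = 0.286, edgeR). Its crush libraries lay below its sham libraries, but it did not pass. These long forms carried nearly all circRNA reads of the gene: its single shorter circRNA had 6 reads, all in crush replicate 2.

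The second most abundant was a circRNA of AABR07069473.1 (ENSRNOG00000056108), a gene model without a name, on chromosome 8 (23508992 to 23560371). Counts were 7 and 15 reads in the crush libraries against 18 and 19 in sham, without overlap, and a log2 change of -0.53 ± 0.52 (edgeR adjusted p = 0.606). The 51517-base circRNA of Atrnl1, an attractin-like membrane protein gene, on chromosome 1 (278698312 to 278749829), counted 10 and 7 reads against 11 and 5. Its levels overlapped, and the log2 change of 0.32 ± 0.60 changed sign with SRPBM totals or without sham replicate 2.

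None of the other tested members passed. Lower after crush in the fit was a circRNA of Mlip, a lamin-interacting protein gene of muscle (61227 bases; 3 and 2 reads against 5 and 10). Its log2 change was -1.35 ± 0.86 (edgeR adjusted p = 0.408). Likewise lower were those of Srpk2, a kinase gene of splicing factors (82114 bases; 4 and 3 against 6 and 7), and Sclt1, a centriole and cilium gene (73800 bases; 0 and 7 against 3 and 13). The circRNA of Sclt1 overlapped between groups, and those of Mlip and Srpk2 did not. Higher in the fit were those of Med13l, a subunit of the Mediator kinase module (75674 bases; 5 and 9 against 3 and 3), and Arl15, a small GTPase gene (57401 bases; 8 and 4 against 0 and 7). Med13l did not overlap and had a log2 change of 1.40 ± 0.79 (edgeR adjusted p = 0.345), while Arl15 did overlap.

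Of the 9 long circRNAs called in all 4 libraries, 6 were among those tested. The other 3 stayed below the read filter. The circRNA of Ash1l, a histone methyltransferase gene, on chromosome 2 (188269009 to 188330330), had 3 and 2 reads in the crush libraries against 4 and 9 in sham. That of Ankib1, a ubiquitin ligase gene, had 2 and 4 against 6 and 3, and that of Stk3, a Hippo pathway kinase gene, had 3 and 4 against 4 and 2. The groups did not overlap for Ash1l and overlapped for Ankib1 and Stk3.

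Members called in both libraries of a group and neither of the other numbered 12, and the counts for exonic circRNAs under 50 kb are given above. Beside Arhgap10 and Ubn2, the 6 others found in sham alone came from Stk39 (10 and 2 reads), Prex2 (4 and 4), Gli3 (2 and 6), Faf1 (5 and 2), Mipol1 (5 and 2) and Rims2 (2 and 2). Prex2 encodes a Rac exchange factor, Gli3 a transcription factor of hedgehog signalling, Faf1 a Fas-associated factor and Rims2 a protein of synaptic vesicle release. Beside Cers6, the 3 found in crush alone came from Mctp2, a calcium-binding membrane protein gene (2 and 3), the unnamed gene model Rn60_6_1241.2 (4 and 2) and Mlip (71544 bases, 2 and 2). All but the 3 with an adjusted p above had too few reads to be tested.

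Hosts with several long circRNAs mostly joined 1 splice site to several partners. In all, 13 hosts had 3 or more long circRNAs, 52 of the 237 between them, and 133 hosts had 1. Atrnl1, Rere and Stk39 had 6 each, Stag1 5, and Eri3 and Utrn 4 each. To test hosts, reads were summed over the long circRNAs of each host, and separately over its other circRNAs, in 1 edgeR table of 436 sums, of which 17 were sums of long circRNAs. None of the 436 sums passed, which is 0.0%, while 4 of the 17 had an unadjusted p under 0.05, against 24.8% of all 436. The crush sums lay below the sham sums for 10 of the 17 (31.7% of all 436) and above for 2 (29.1%). With DESeq2 1 long sum rose and 1 fell, where 33 of all 436 sums passed. The 17 had a median log2 change of -1.08, against -0.02 over all 436.

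Stk39, the gene of a kinase that regulates cation and chloride cotransporters, had long circRNAs in sham nerve alone. Its 6 long circRNAs, between 54410080 and 54566332 on the minus strand of chromosome 3, had 17 and 8 reads after sham and 0 and 0 after crush. Each of the 6 was listed in sham alone, and 4 ended at 54566332. The summed level was 0.934 ± 0.431 SRPBM after sham against a listed 0, and with the floor of 3 reads for each of the 6 no bound on the fold remained. The sum did not pass (edgeR adjusted p = 0.0864). Over the alternatives its adjusted p ran from 0.00842 to 0.185 and was under 0.05 in 4 of 9, among them DESeq2 (0.0265) and the fit without crush replicate 1 (0.0263). Its 5 other circRNAs had 8 and 9 reads in the crush libraries against 41 and 30 in sham, also without overlap, a log2 change of -1.95 ± 0.45 (edgeR adjusted p = 0.0864).

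Cers6 had the smallest p among the sums of long circRNAs, with 34 and 27 reads in the crush libraries against 0 and 0 in sham (edgeR adjusted p = 0.0829). The sum was at least 2.99-fold higher after crush, with the floor of 3 reads set for each of the 3 circRNAs in each sham library. It did not pass, and over the alternatives its adjusted p ran from 1.4e-07 to 0.176. It was under 0.05 in 6 of 10, among them DESeq2 (0.000288) and the fit without sham replicate 2 (6.46e-05).

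Rere, a gene for a nuclear receptor corepressor of the atrophin family, depended on 1 library. Its 6 long circRNAs, between 167486001 and 167615430 on chromosome 5, had 0 and 11 reads in the crush libraries against 14 and 12 in sham. Crush replicate 1 was empty and crush replicate 2 lay near the sham libraries. The summed log2 change was -1.13 ± 1.11 (edgeR adjusted p = 0.596), and 0.01 without crush replicate 1. The other 6 Rere circRNAs had 15 and 21 reads in the crush libraries against 20 and 15 in sham. The start 167486001 was used by 4 of the long ones and the end 167581074 by 3.

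Atrnl1 went the other way. Its 6 long circRNAs had 18 and 11 reads in the crush libraries against 13 and 9 in sham, a log2 change of 0.49 ± 0.52 (edgeR adjusted p = 0.621), and the groups overlapped. Of the 6, 4 were listed in crush alone, each with 2 or 3 reads, and none in sham alone. Again 1 splice site recurred, the end 278749829, used by 4 of them.

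**Figure D4:**
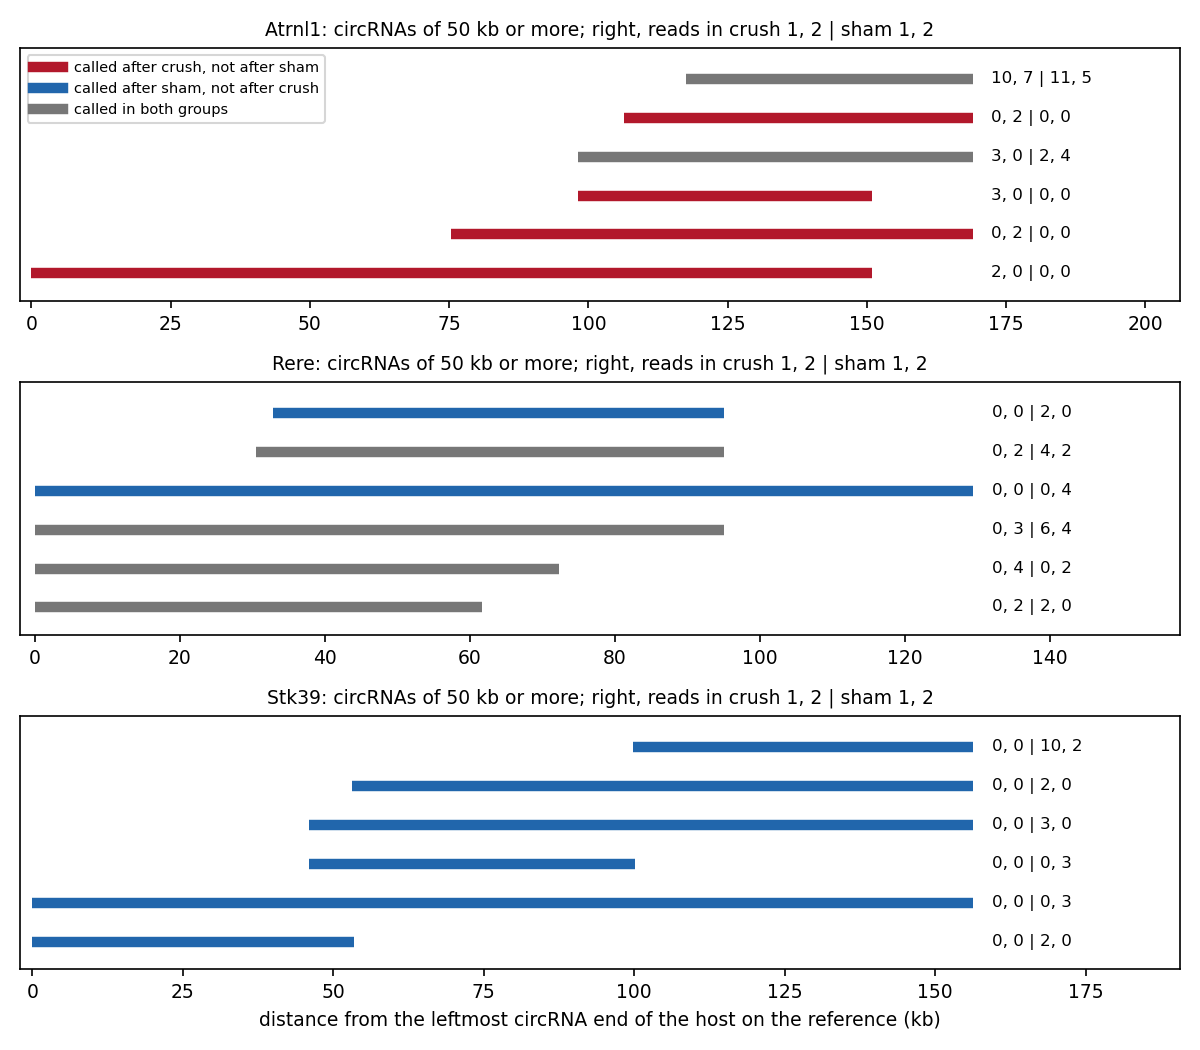
Extent of the 6 long circRNAs of Atrnl1, Rere and Stk39, as distance (kb) from the leftmost end, with the reads in crush 1, 2 and sham 1, 2 at the right and colour for the groups in which each was called. All 6 of Stk39 are listed in sham alone, 4 of 6 of Atrnl1 in crush alone, and 4 of 6 of Rere in both groups.

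Stag1 had 0 and 0 reads in the crush libraries against 11 and 2 in sham over 5 long circRNAs, each called in 1 library, and 4 of them started at 109044546. Utrn, the gene of utrophin, which links the cytoskeleton to the basal lamina receptor dystroglycan, had 0 and 2 against 0 and 7 over 4. Eri3, an exonuclease gene, had 5 and 2 against 7 and 9 over 4 (log2 change -1.08 ± 0.83, edgeR adjusted p = 0.468). Gulp1, an adaptor gene for engulfment of dead cells, had 6 and 0 against 14 and 6 over 3. Tenm2 had 0 and 4 against 10 and 6 over 2. Sham libraries lay above crush libraries for Eri3 and Tenm2 and overlapped for Gulp1, and none of these 3 passed.

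Fixed lists of gene functions took in 65 of the 172 hosts together with the cell type lists. No list was tested, and each is given as counts. Over all 237 long circRNAs, 53.2% were called in sham alone and 31.6% in crush alone, and 64.5% of the 172 hosts had a higher mean level after sham. Long circRNAs of adhesion, cytoskeleton and membrane protein genes came from 11 hosts, 18 circRNAs, of which 15 were called in sham alone, 2 in crush alone and 1 in both groups. Their reads numbered 0 and 6 after crush and 25 and 15 after sham, and the mean level was higher after sham for 10 of the 11 hosts. Over all circRNAs of detected hosts of this list, long or short, the reads were 91 and 107 against 245 and 220. Utrn led with the reads given above. Magi2 had 8 reads, all in sham replicate 1.

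Kinases and phosphatases had 13 long circRNAs in 6 hosts, with 6 and 8 reads against 21 and 16. Over all circRNAs of this list the reads were 359 and 340 against 371 and 341. Stk39 gave all but 4 of the sham reads of replicate 1 and 8 of the 16 in replicate 2, and 3 of the 6 hosts were higher after crush. Dyrk1a, a kinase gene of neural development, had 3 and 0 against 0 and 2. Small GTPase regulators had 19 in 15 hosts, with 14 and 9 reads against 25 and 24, and 8 of the 15 hosts were higher after sham. All circRNAs of that list had 308 and 307 reads against 597 and 403. In that list Arhgap10 led with Evi5 (2 and 4 against 3 and 2), and Dennd1a, an exchange factor gene for Rab35, had 8 reads in sham replicate 2 alone. Hosts in these 2 lists were split in direction.

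Chromatin and DNA regulators had 15 long circRNAs in 6 hosts, with 10 and 13 reads against 29 and 23, mostly from Rere, Ash1l and Stag1. All circRNAs of the list, long or short, went the other way, with 354 and 414 reads against 251 and 295. The other 3 hosts, Arid1b, Baz1a and Baz2b, were called only in crush replicate 1, with 2 or 3 reads each. Transcription factors had 12 in 11 hosts, with 15 and 11 reads against 23 and 24, and 299 and 334 against 555 and 609 over all circRNAs of the list. Among them Med13l and Gli3 had the reads given above. Membrane traffic genes had 9 in 9 hosts, with 5 and 5 reads against 2 and 17, and 177 and 230 against 165 and 192 over all circRNAs. Dennd1a with 8 and Vps13a with 5 gave most of the reads of sham replicate 2. The ubiquitin system had 6 in 5 hosts, with 5 and 4 reads against 2 and 2, and 350 and 293 against 433 and 348 over all circRNAs. It was led by Rnf13, a membrane ubiquitin ligase gene, with 3 and 2 reads in crush alone.

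**Figure D5:**
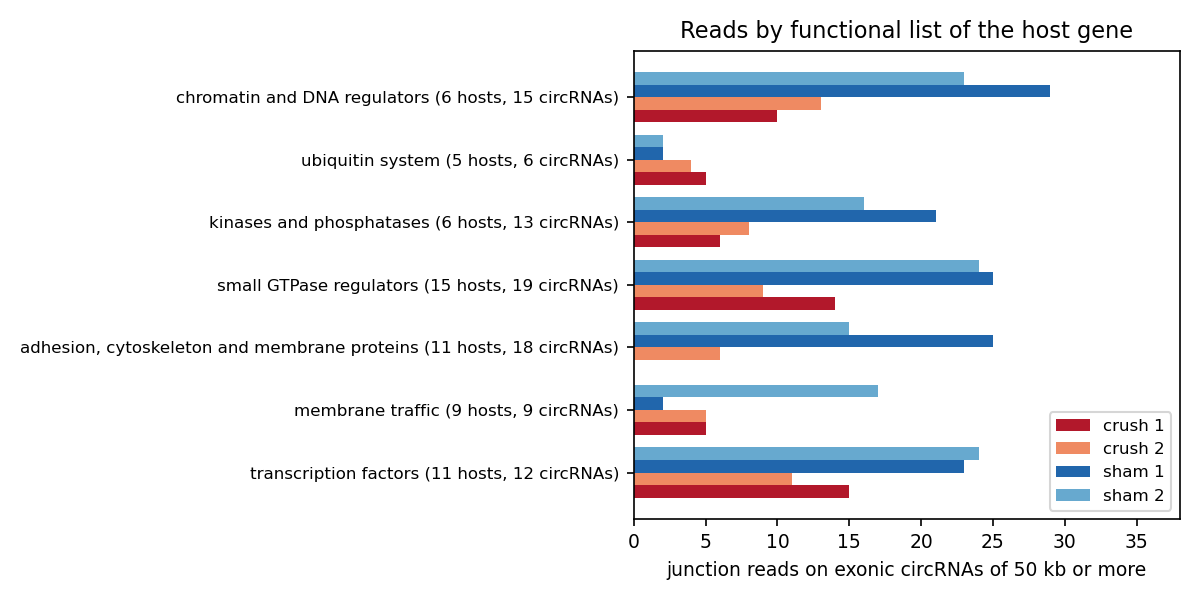
Junction reads on exonic circRNAs of 50 kb or more in each library, summed over hosts of 7 functional lists. Sham bars are longer than crush bars for adhesion genes (25 and 15 against 0 and 6), kinases and chromatin regulators. The same holds for small GTPase regulators and transcription factors. The ubiquitin system goes the other way, and membrane traffic is long in sham replicate 2 alone.

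Few long circRNAs had a host in a cell type list, and none of these but 1 of Mlip had enough reads to be tested. In the leukocyte list, 5 of 8 long circRNAs were called in crush alone and 3 in sham alone, with 6 and 9 reads against 4 and 5. Arhgap15, a Rac GTPase-activating protein gene of leukocytes, had 2 and 3 against 0 and 0, and Mctp1 0 and 4 against 0 and 3. Elmo1, which works with Dock proteins in engulfment and migration and is also expressed outside leukocytes, had 0 and 0 against 4 and 2. All 4 of the Schwann cell list were called in sham alone, those of Cadm2, an adhesion molecule gene (7 reads in sham replicate 1), Ank3, the ankyrin G gene of nodes of Ranvier (2), and Sorcs1 (2). In the muscle list, Mlip had 5 and 4 against 5 and 14, and Dmd, the dystrophin gene, had 2 in sham replicate 2 alone. Marker counts of several of the lists move with the groups, and their part in the lower share of long circRNAs was not tested.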

How the data were processed

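Total RNA libraries, 2 of crushed and 2 of sham-operated rat nerve, were used. Per the file headers, the authors deposited junction read counts per circRNA, as raw counts, and the SRPBM signal, which is the count times 1 constant per library (0.0598 to 0.0786 SRPBM per read). Positions and genomic length were used as deposited. Per the submitters' processing notes, CASAVA 1.8, BWA, edgeR and build Rnor_6.0 were used, with no step named, and no source used here names the circRNA caller. Host symbols were updated through the RefSeq gene table of GRCr8 (161 of 172 current, 7 by synonym, 4 kept).

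CircRNAs with at least 5 reads in at least 2 libraries were tested with edgeR 4.0.16 (TMM, glmQLFit, glmQLFTest; R 4.3.3), as a two-sided test at an adjusted p of 0.05 (Benjamini-Hochberg), and DESeq2 1.42.0 was an alternative. CircRNAs with 2 hosts (3 in all) stayed out of host sums. A listed 0 in both libraries of a group was set to a floor of 3 reads per circRNA and library for bounds, in host sums too. On simulated counts with 4-fold and 8-fold changes, the circRNA test found 12.7% and 35.9% of them and the host sums test 14.4% and 49.8%. The changes were placed at random among all circRNAs or sums past the read filter, so these are not rates for members. A member that did not pass may still have changed. Named were the 10 most abundant members, those past the test (or the 6 smallest p per direction), those called in all 4 libraries, the 5 longest, 3 on either side of the threshold, the 5 hosts with most members, members in both libraries of 1 group only, host sums by the same rule, and the top 3 hosts per list. Those with under 5 reads in such a group pair were added after their values were seen. The members, lists and rules were chosen with earlier results of these data known. Some genes that these rules name are not reported here.

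Replicate numbers were checked for pairing: deviations from the group means of same-numbered libraries had a correlation of -0.11, so the numbers were not taken to pair libraries. The replicates differed by more than sampling noise.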

Additional observations from a re-analysis of the deposited data

How the results depend on the processing

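The lower share and number of long circRNAs and their lower part of host reads kept their direction in every alternative run. Both crush libraries lay below both sham libraries in each measure, so leaving out 1 library could not turn the direction. When each library was left out in turn, the share differed by -2.15 to -1.54 percentage points, the number by -35.5 to -26.5 and the part of host reads by -5.34 to -3.90. Thinned to the shallowest library, 60 and 61.2 members were called after crush and 92.6 and 85.4 after sham. Calls of single members were less stable, and in some settings no circRNA of any class passed. The 1 member that rose became 0 with TMM over exonic circRNAs and with at least 2 reads in 2 libraries. It also became 0 with the replicate block and with crossed replicate numbers as block. In these settings 0 of all tested circRNAs passed (428, or 1355 with at least 2 reads), against 51 of 428 in the reported fit. All 3 called members span less than 100 kb, so at that span the count was 0 in advance. The 2 that fell became 0 under all these settings and also without a read filter, where 52 of 4942 circRNAs passed. They became 0 too with DESeq2, which gave neither an adjusted p, and with at least 10 reads, where neither was tested. With each library left out in turn, between 0 and 1 member rose and 0 fell. None of the host sums passed in the reported fit. With DESeq2 1 sum of long circRNAs rose and 1 fell, where 33 of all 436 sums passed. Without a read filter 1 rose and 1 fell, where 36 of all 2455 passed. With SRPBM totals 1 rose and 0 fell, where 12 of 436 passed. The same held with at least 10 reads, where 42 of 183 passed. Replicate deviations correlated at -0.11. With crossed numbers as a block, added after seeing the data, 1 long sum rose and 1 fell, where 39 of all 436 passed. With the numbers as labelled, 0 of the 436 passed. Some log2 changes turned sign when each library was left out in turn. They ran from -0.70 to 0.042 for the Kiaa1328 circRNA of 92839 bases and from -0.20 to 0.81 for the Atrnl1 circRNA of 51517 bases, which also turned with SRPBM totals (-0.087). They ran from -1.81 to 0.043 for the Sclt1 circRNA (host sum -1.91 to 0.044), from -0.15 to 1.52 for the Arl15 circRNA (host sum -0.26 to 1.54), and from -6.60 to 0.012 for the Rere sum, whose lowest value is fitted against a crush library at 0. The causes were not tested. SRPBM totals moved the median of all tested changes from 0.03 to -0.37. Counts of 2 or 3 reads limit most members.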

Other observations

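Long spans were not only exonic. The files hold 141 intergenic and 46 intronic circRNAs of 50 kb or more. The intergenic ones took 11.6% and 13.1% of intergenic junction reads in the crush libraries against 29.5% and 32.8% in sham. Much of this came from 1 circRNA on chromosome 10, 94083626 to 94187819, with 21 and 40 reads against 206 and 277. Without it the shares were 10.2% and 10.9% against 19.1% and 19.2%, still without overlap between the groups. The intronic ones of 50 kb or more had 33 and 55 reads in the crush libraries against 52 and 29 in sham, which overlapped. The most abundant of them lies in Pan3, a gene of poly(A) shortening that also hosts a long exonic circRNA, with 8 and 10 reads against 12 and 10. Both circRNAs singled out here were chosen after their values were seen.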
